A study of Mus musculus with 6 samples.

Results

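The genes described here are 43 genes of fatty acid oxidation and the peroxisome, measured in mouse kidney at 2 ages. They were chosen by name, as genes whose probes on the array are assigned to a RefSeq transcript, and they account for 53 of the array's 55681 probes and for 43 of the 20284 genes that could be named. Grouped by place of action or role, 18 encode mitochondrial proteins, 16 peroxisomal enzymes and transporters and 2 cytosolic thioesterases. A further 4 are peroxins (the proteins that build peroxisomes), and 3 are regulators, among them Pdk4, or take up fatty acids. The study compared kidney total RNA of male mice of the inbred strain C57BL/6 aged 2 months (young) with that of mice aged 20 months (aged), with 3 samples per age, no treatment named and each sample on a single-colour Agilent array of its own. The samples are separate RNA preparations per the labels, but whether a different mouse gave each is not stated, so a p-value here measures only the spread over these preparations, part of which may be technical. In whole-kidney RNA, fewer cells of a type and less RNA per cell cannot be told apart.

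Long-chain fatty acids enter mitochondria as carnitine esters. Inside, chains are shortened by repeated rounds of oxidation, hydration, oxidation and thiolysis, with electrons passed to the respiratory chain through the electron transfer flavoprotein. Peroxisomes run a parallel spiral, started by acyl-CoA oxidases, for very long, branched and dicarboxylic chains and hand the shortened products on. Proximal tubule cells of the kidney are rich in both organelles and depend on fatty acids as fuel, and many of these genes are known targets of the nuclear receptor PPARα (Ppara), which binds DNA with a retinoid X receptor at a direct repeat of the half-site AGGTCA.

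Promoter letters were read for the members because many of them are known targets of this receptor. The 13-base motif of 2 AGGTCA half-sites on either side of a free base (N), a direct repeat, was searched on both strands in the 250 bases before each gene start, allowing 2 mismatches over its 12 fixed letters. RefSeq promoter windows (build GRCm38.p6) were found for 36 of the 43 members. A gene counted as matched if any of its windows held a match. There were 32851 windows for 27025 genes, so genes with more starts had more places to match. A match lay in 4 of these 36 (11.1%), against 396 of 11548 tested genes with a window (3.43%) and 1005 of all 27025 genes with a window (3.72%). A match is a description of letters, not a binding site. The 4 members with a match are printed with 20 bases on either side where the window allows, 5′ to 3′ in the direction of the gene, with the match in capitals. All 4 matches read on the opposite strand, and that of Acot12 has 1 mismatch while the others have 2. Pdk4, the member with the largest difference between the ages, is printed around its best place, which has 4 mismatches and so no capitals. Ucp3 is not a member but is the pathway gene with the smallest adjusted p (below), and its match, in the gene's own direction, starts 51 bases before the start.
Acot12, chr13:91741391-91741443, plus strand: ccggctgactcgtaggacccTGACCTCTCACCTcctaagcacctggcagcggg
Acot4, chr12:84038346-84038378, plus strand: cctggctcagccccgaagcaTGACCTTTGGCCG
Cd36, chr5:17835927-17835979, minus strand: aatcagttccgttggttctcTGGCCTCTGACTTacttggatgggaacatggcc
Etfa, chr9:55512288-55512340, minus strand: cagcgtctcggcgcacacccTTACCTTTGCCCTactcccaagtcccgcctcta
Ucp3, chr7:100472920-100472972, plus strand: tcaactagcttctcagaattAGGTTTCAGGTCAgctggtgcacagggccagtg
Pdk4, chr6:5496402-5496454, minus strand: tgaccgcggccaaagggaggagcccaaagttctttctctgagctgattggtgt

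Signals are given as normalised log2 signal, the log2 processed intensity of a probe minus the 75th percentile of its array, so that 0 is a probe at that percentile. They can be compared between arrays but not between genes, since each probe has its own brightness. A gene is represented by its brightest probe, and a change is aged minus young on the log2 scale. The share of probes well above background was 55.3% to 72.9% on the young and 46.3% to 62.8% on the aged arrays. All arrays lay on 1 slide, with the young samples in slide row 1 and the aged in row 2, so effects of age and of slide row cannot be told apart. Of the 43 members, 42 were tested and 41 of these were well above background on all 6 arrays. The 18 proximal tubule markers examined, among them the endocytic receptor Lrp2 and the phosphate transporter Slc34a1, were also above background on all 6.

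Most members had a slightly lower signal in aged kidney, but none passed the test. With limma and Benjamini-Hochberg adjustment over all 14548 tested genes, 0 of 42 members had an adjusted p under 0.05, against 491 genes of all those tested (3.38%; 1.98% higher and 1.4% lower). Without adjustment, 6 members had a p under 0.05, all of them lower in aged kidney: Pdk4, Ehhadh, Crot, Acadm, Decr1 and Cpt1b. That is 6 of 42 members, against 17.1% of all genes in either direction of which 9.18% were lower and 7.97% higher. The 3 young and 3 aged values did not overlap for 11 members, 10 lower and 1 higher, while 21.9% of all genes did not overlap (11.5% lower and 10.4% higher). In either direction these shares are close to the background. In the lower direction the members' counts stand above it, which was not tested. Changes were below 0 for 33 members and above 0 for 9, where 52.8% of all genes were below 0 and 47.2% above, and the median change was -0.11 for members against -0.01 for all tested genes. Leaving out aged replicate 2 gave 28 below 0, and leaving out aged replicate 3 gave 39. With arrays centred on their median, 29 were below 0. There the members' median was -0.07 and that of all tested genes 0.03. The 95% interval of the change lay within a 2-fold change in either direction for 41 of 42 members, all but Pdk4, and within a 1.5-fold change for 35. The other 6 outside the 1.5-fold bound were Acot2, Decr1, Slc25a20, Crat, Crot and Ehhadh. Most genes also lay within these bounds: of all 14548 tested, 13018 within the 2-fold and 9813 within the 1.5-fold bound.

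**Figure D1:**
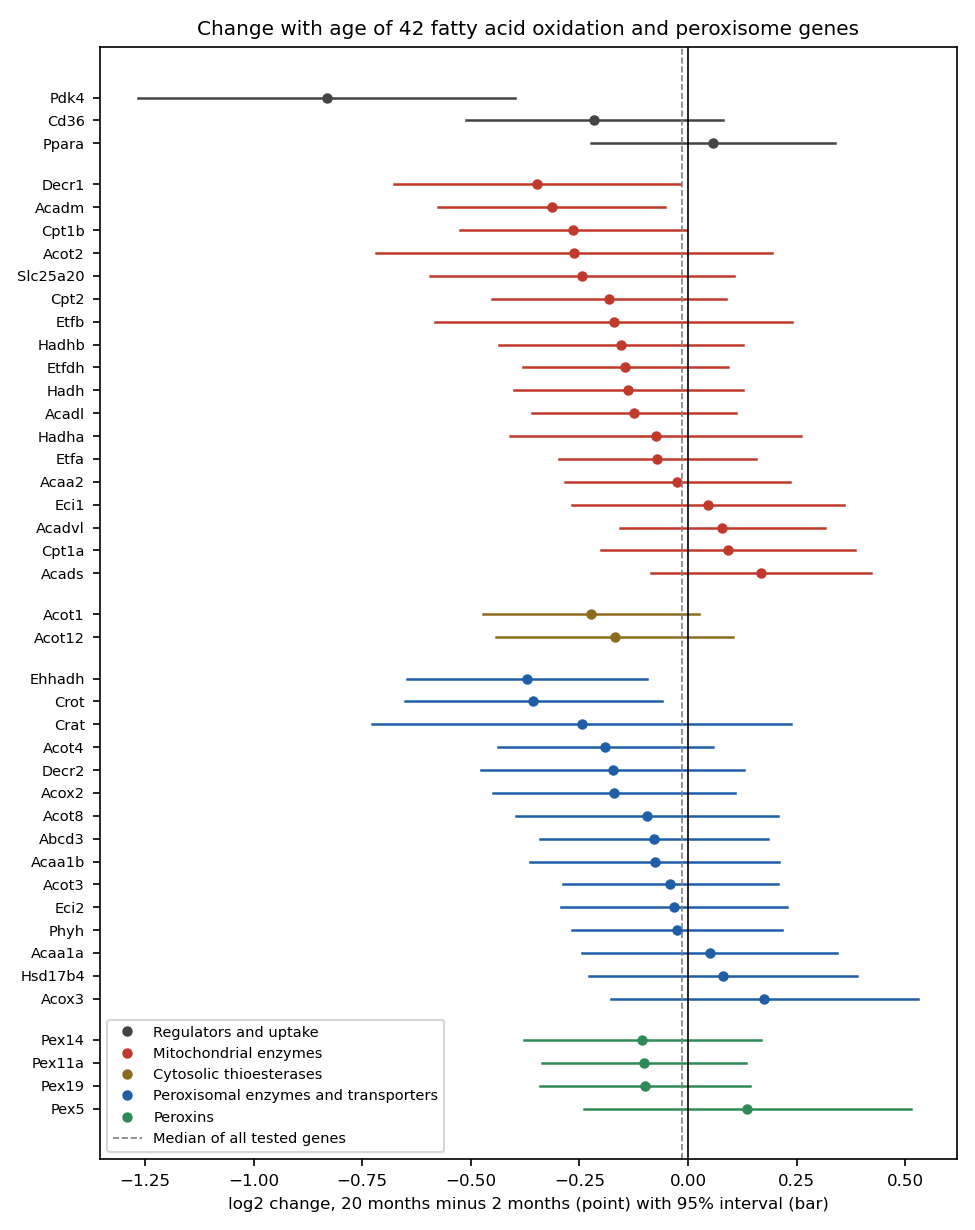
Change with age of each of the 42 tested members. The horizontal axis gives the log2 change from 2 to 20 months (points) with its 95% interval (bars). Genes are grouped and coloured by place of action or role, and the dashed line is the median of all tested genes, -0.01. Most points lie a little to the left of 0, from -0.83 for Pdk4 to 0.18 for Acox3, and most bars cross 0.

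The regulators and uptake genes held the largest difference of the set. Pdk4 encodes a kinase that inhibits pyruvate dehydrogenase and so spares glucose when fat is burned, and it is a known PPAR target. Its signal was 1.86, 1.40 and 1.11 on young replicates 1, 2 and 3 and 0.66, 0.51 and 0.71 on the aged arrays. Every aged value was below every young value, and the young values were the more spread (SD 0.38 against 0.11, n = 3 each). The change was -0.83 ± 0.19 (SE, n = 3 arrays per age), a 1.78-fold lower signal with a 95% interval of -1.27 to -0.40, and its adjusted p by limma was 0.0599, just outside the threshold. Over the alternative settings the adjusted p ranged from 0.0122 to 0.245, and Pdk4 passed in 6 of 18: with median centring (0.0166), normexp background correction (0.0440), a filter requiring signal on all 6 arrays (0.0291), a trended robust variance (0.0122), array weights (0.0424) and without young replicate 3 (0.0454). Without young replicate 1 its change was -0.63 (adjusted p = 0.131).

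Young replicate 1, where Pdk4 was highest, also stood apart for the brown fat marker Ucp1, with a signal of -2.53 there against -6.54 and -7.38 on the other young arrays. Cidea, another gene of brown fat, was at -0.42 there and at -2.37 and -2.66 on the others. On aged replicates 1, 2 and 3 Ucp1 was at -6.60, -7.12 and -4.21 and Cidea at -1.98, -2.29 and -1.61. Every aged value of Cidea thus lay above young replicates 2 and 3, whereas every aged value of Pdk4 lay below them. Of 10 adipocyte markers in all, 8 were tested, Ucp1 was above background on 2 of 3 young and 0 of 3 aged arrays, and Lep, the fat hormone leptin, on 0 young and 1 aged array. Their summed signal, relative to the array's 75th percentile, was 5.63 on young replicate 1 and at most 18.0 on the other young arrays, and 18.5 to 21.4 on the aged arrays. Thus the list as a whole was lowest on the array where its brown fat members were highest. The part of fat tissue in the Pdk4 values was not tested.

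Ppara itself had signals of 1.92, 2.10 and 2.16 in young and 2.09, 1.99 and 2.27 in aged kidney, which overlap. Its change was 0.06 ± 0.12 (95% interval -0.22 to 0.34, adjusted p = 0.862), and its sign turned without young replicate 1 (-0.01) and without aged replicate 3 (-0.02). The other 2 probes of Ppara gave 0.02 and -0.06, so no probe of the receptor differed by more than the spread between samples. Cd36, the membrane transporter that takes up long-chain fatty acids, was at 3.64, 3.83 and 3.49 in young and 3.57, 3.41 and 3.33 in aged kidney, an overlap between the ages. Its change was -0.22 ± 0.13 (adjusted p = 0.445).

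In the carnitine shuttle, the changes ran from -0.26 to 0.09 and none passed. Cpt1b, the muscle-type carnitine palmitoyltransferase of the outer membrane, was at 0.43, 0.30 and 0.22 in young and 0.04, -0.05 and 0.16 in aged kidney, without overlap. The change was -0.26 ± 0.11 (adjusted p = 0.284). A second, dimmer Cpt1b probe also had non-overlapping groups and a larger change of -0.51 (adjusted p over single probes 0.180, where 2.09% of all probes passed). Cpt1a, the liver-type enzyme that sets the rate of entry, changed by 0.09 ± 0.13 on its brighter probe and by -0.12 on the other. Cpt2, which returns the acyl group to coenzyme A inside the mitochondrion, changed by -0.18 and by 0.02 on its 2 probes, and the translocase Slc25a20 by -0.24 ± 0.15 (adjusted p = 0.468). For Cpt1a and Cpt2 the probes thus differ in sign, and for both genes the ages overlapped on each probe.

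The acyl-CoA dehydrogenases, which take the first oxidation step and differ in the chain length they accept, did not share a direction. Acadm, the medium-chain enzyme, was at 3.75, 3.995 and 3.78 in young and 3.47, 3.52 and 3.61 in aged kidney, without overlap. Its change was -0.31 ± 0.11 (95% interval -0.58 to -0.05, adjusted p = 0.207). Acads, the short-chain enzyme, was the 1 member whose aged values all lay above the young: 1.99, 2.13 and 1.99 in young against 2.15, 2.14 and 2.33 in aged kidney. The gap between young replicate 2 and aged replicate 2 is small, and the change was 0.17 ± 0.11 (adjusted p = 0.490). The long-chain enzyme Acadl changed by -0.12 and the very long-chain enzyme Acadvl by 0.08, both with overlapping ages.

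The later steps of the mitochondrial spiral differed little between the ages. Hadha and Hadhb, the 2 subunits of the trifunctional protein, which are neighbours in the genome, changed by -0.07 and -0.15. The hydroxyacyl-CoA dehydrogenase Hadh changed by -0.14 and the thiolase Acaa2 by -0.02, and the ages overlapped for all 4 genes. Decr1, the reductase that lets chains with double bonds enter the spiral, had the largest difference of the members grouped as mitochondrial, which leave out Pdk4. It was at 2.55, 2.72 and 2.504 in young and 2.45, 1.99 and 2.29 in aged kidney, with aged replicate 2 the lowest, and the groups did not overlap. The change was -0.35 ± 0.14 (adjusted p = 0.267), and its second probe gave -0.33, also without overlap. Without aged replicate 2 the change of Decr1 was -0.22. Eci1, the isomerase for unsaturated chains, changed by 0.05. Of the electron transfer genes, Etfdh changed by -0.14 ± 0.10 with non-overlapping groups (adjusted p = 0.528), while the flavoprotein subunits Etfa and Etfb changed by -0.07 and -0.17 and overlapped.

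**Figure D2:**
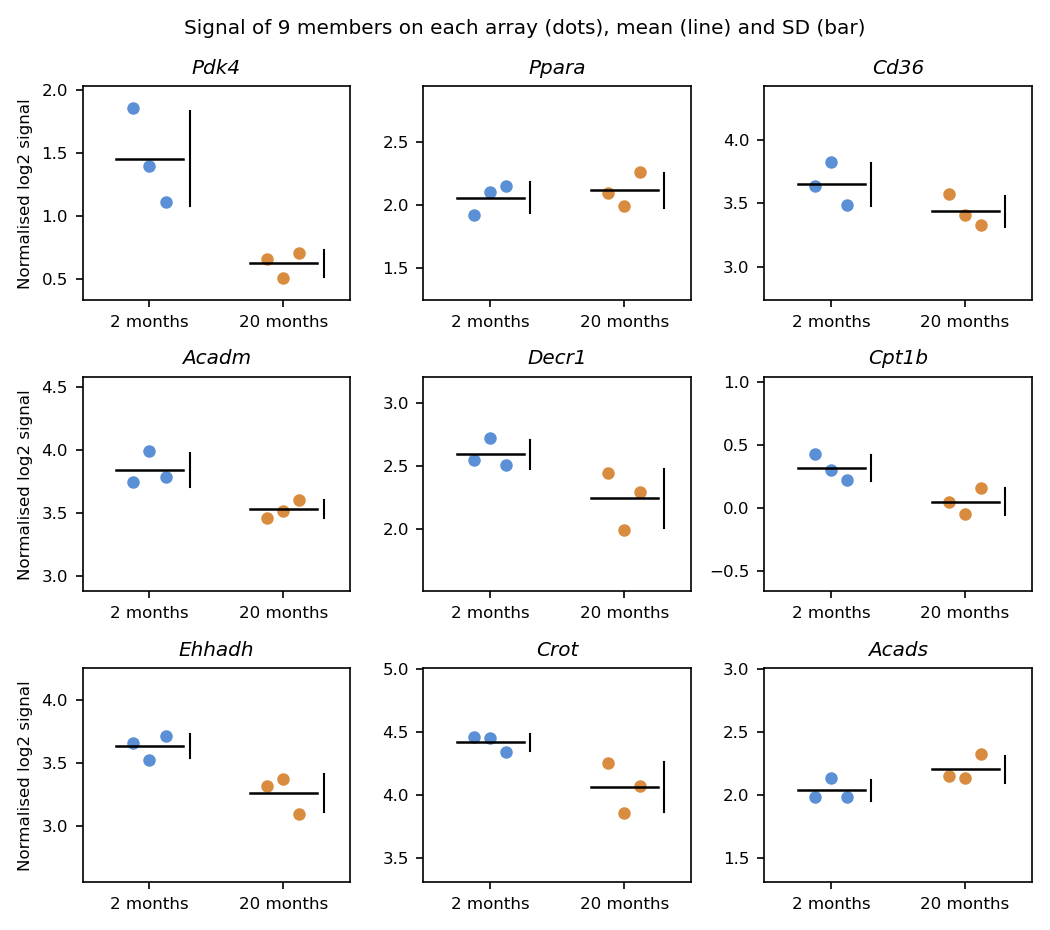
Normalised log2 signal of 9 members on each of the 6 arrays (dots; 2 months on the left, 20 months on the right of each panel), with the mean (line) and SD (bar) of the 3 arrays of an age. In Pdk4, Acadm, Decr1, Cpt1b, Ehhadh and Crot every aged dot lies below every young dot, in Acads every aged dot lies above, and in Ppara and Cd36 the ages overlap.

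The peroxisomal enzymes and transporters had a median change of -0.08, with 12 of 15 tested members below 0 and none past the threshold. Ehhadh, the bifunctional enzyme that carries out the hydration and dehydrogenation steps for straight and dicarboxylic chains, had signals of 3.66, 3.53 and 3.71 in young and 3.32, 3.37 and 3.09 in aged kidney. The groups did not overlap, and the change was -0.37 ± 0.12, a 1.29-fold lower signal (95% interval -0.65 to -0.09, adjusted p = 0.164). Crot, which turns shortened chains into carnitine esters for export to mitochondria, was at 4.45, 4.45 and 4.34 in young and 4.25, 3.85 and 4.07 in aged kidney. Aged replicate 2 was again the lowest, the groups did not overlap, and the change was -0.36 ± 0.13 (adjusted p = 0.206). Hsd17b4, the second bifunctional enzyme, which handles branched chains, changed by 0.08, so the 2 bifunctional enzymes differ in sign, although a difference between them was not tested.

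Acox3, an oxidase of branched chains, had the largest change above 0 of all members, but its young values of 2.15, 2.19 and 1.70 enclosed the aged values of 2.11 and 2.16, with only aged replicate 3 above them at 2.29. The change was 0.18 ± 0.15 (adjusted p = 0.612), and its second probe gave -0.04. Acox2, the oxidase of bile acid precursors, changed by -0.17. The peroxisomal thiolases Acaa1a and Acaa1b changed by 0.05 and -0.08, the auxiliary enzymes Decr2 and Eci2 by -0.17 and -0.03, Phyh, which starts the breakdown of phytanic acid, by -0.03, and the membrane transporter Abcd3 by -0.08. Crat, the acetyltransferase that acts in both organelles, was dim: it was above background on 3 young and 2 aged arrays and changed by -0.25 ± 0.21. Abcd2, the transporter of very long chains, was above background on 0 of 6 arrays and was not tested.

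The acyl-CoA thioesterases, which release free fatty acids from coenzyme A, were below 0 for all 6 members. So were 33 of the 42 members tested and 52.8% of all genes. None of the 6 had an adjusted p under 0.05 or an unadjusted p under 0.05. The thioesterases examined outside the members did not share a direction. Acot9 (0.23, without overlap), Acot7 (0.08) and Acot11 (0.03) were above 0, and Acot5 (-0.67), Acot6 (-0.31) and Acot13 (-0.05) below it. Acot1, in the cytosol, was at 3.62, 3.49 and 3.55 in young and 3.29, 3.25 and 3.45 in aged kidney, without overlap. Its change was -0.22 ± 0.11 (adjusted p = 0.342). The peroxisomal Acot4 changed by -0.19 ± 0.11, also without overlap (adjusted p = 0.419), while the mitochondrial Acot2 (-0.26), the cytosolic Acot12 (-0.17) and the peroxisomal Acot8 (-0.09) and Acot3 (-0.04) overlapped. The 2 probes of Acot3 stood far apart: the brighter gave -0.04, and the dimmer gave -0.53 with values of -1.17, -1.15 and -1.53 in young and -1.85, -2.06 and -1.53 in aged kidney (adjusted p over single probes 0.227). Acot2, Acot1, Acot4, Acot3 and Acot5 follow each other in the genome and are closely related in sequence, so their probes may share signal.

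None of the 4 peroxins passed the threshold. Pex5, the receptor that carries enzymes into the peroxisome, was at 2.45, 2.35 and 2.44 in young and 2.25, 2.51 and 2.88 in aged kidney, an overlap in which aged replicate 3 was the highest and aged replicate 1 the lowest. Its change was 0.14 ± 0.16 (adjusted p = 0.727), and without aged replicate 3 it was -0.03. Pex14, the docking protein for that receptor, was at 1.74, 1.81 and 2.03 in young and 1.79, 1.66 and 1.82 in aged kidney, a change of -0.10 ± 0.12 (adjusted p = 0.709). Pex11a, which promotes peroxisome division and is a known PPARα target, changed by -0.10 with groups that did not overlap (adjusted p = 0.670), and Pex19, the chaperone of peroxisomal membrane proteins, by -0.10 with an overlap.

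Mitochondrial and peroxisomal genes, set side by side, showed similar small differences. Of the 18 genes grouped as mitochondrial 14 were below 0, with a median of -0.14 and a range of -0.35 to 0.17. Pdk4 (-0.83) was grouped with the regulators and is not among them, although Pdk1 and Pdk2 stand in the list of further mitochondrial genes below. Of the 15 peroxisomal genes tested 12 were below 0, with a median of -0.08 and a range of -0.37 to 0.18. The peroxisomal median moved both ways with the setting: it was -0.15 with the mean of a gene's probes, -0.13 with array weights and -0.16 without aged replicate 3, but -0.036 with median centring and -0.029 without aged replicate 2. The mitochondrial median was -0.084 without aged replicate 2. The 4 peroxins had a median of -0.10, which was -0.058 with median centring, -0.060 without aged replicate 2 and -0.037 without young replicate 3. Median centring also moved the median of all tested genes, from -0.01 to 0.03. The difference between the compartments was not tested.

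**Figure D3:**
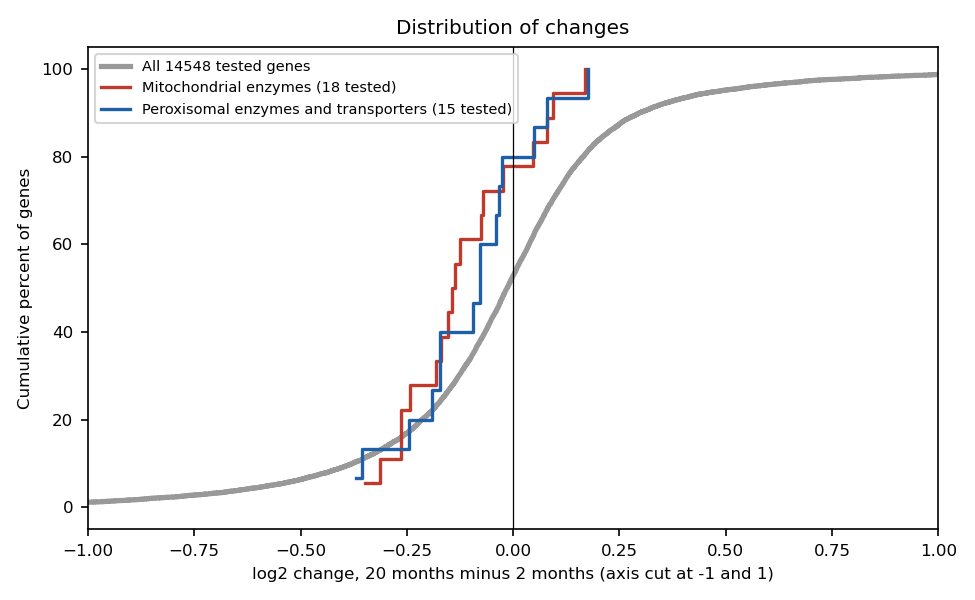
Cumulative percent of genes (vertical axis) whose log2 change from 2 to 20 months is at or below the value on the horizontal axis, for all 14548 tested genes, the 18 mitochondrial and the 15 tested peroxisomal members; the axis is cut at -1 and 1. The curves of both groups of members run close together and lie to the left of all genes near 0, where 77.8% of mitochondrial, 80.0% of peroxisomal and 52.8% of all genes are below 0.

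The members' level was also followed array by array, as the median over the 42 members of the signal minus each gene's mean over all arrays. This median was 0.03, 0.09 and 0.04 on young replicates 1, 2 and 3 and -0.07, -0.11 and 0.02 on the aged arrays. Aged replicate 3 thus lay near young replicate 1, and only that narrow gap separated the ages. The ages overlapped in 6 of the alternatives that keep all arrays, where young replicate 1 lay below aged replicate 3: at 0.018 against 0.045 with the mean of a gene's probes, at 0.022 against 0.035 both with no filter on dim probes and with a filter requiring signal on all 6 arrays, at 0.021 against 0.032 with the authors' deposited values, at 0.021 against 0.035 with the percentile taken over probes, and at -0.12 against 0.16 with median centring. For all 14548 tested genes the same median was 0.00, 0.00 and 0.02 in young and -0.03, -0.02 and 0.04 in aged kidney, highest on aged replicate 3. The proximal tubule markers, taken as a list, had medians of -0.01, 0.04 and 0.03 in young and -0.11, -0.06 and 0.10 in aged kidney, again with aged replicate 3 the highest.

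None of the 18 proximal tubule markers passed the threshold, 1 had an unadjusted p under 0.05 (Pck1, lower), and their median change was -0.02. Their summed signal was 258 to 279 in young and 245 to 288 in aged kidney. The 10 markers of the thick ascending limb and distal nephron had 0 called and a median of -0.20. Of these, 2 had an unadjusted p under 0.05, both without overlap. They were Calb1 (-0.70, adjusted p by limma 0.0692) and Slc12a3 (0.37, 0.180). The 10 markers of podocytes and endothelium had 0 called (0 with an unadjusted p under 0.05) and a median of -0.02. Of the macrophage markers, 8 of 8 tested changes were above 0. C1qc, a complement subunit made by macrophages, rose by 0.68 (adjusted p = 0.0462, which no fit leaving out an array kept), and the summed signal was 45.9 to 54.6 in young and 58.6 to 68.2 in aged kidney. Among the adipocyte markers Plin4, a lipid droplet protein, rose by 1.78 (adjusted p = 0.0294, lost without young replicate 1 or 2 or aged replicate 2 or 3). The 10 muscle markers, 6 of them tested, had a summed signal of 1.02 to 1.304 in young and 1.295 to 1.45 in aged kidney, a narrow overlap. Their median change was 0.11, with 4 above 0 and 2 below it (Acta1, -0.21, and Tnni3, -0.09). Among them Tnnt2, cardiac troponin T, rose by 1.51 (adjusted p = 0.00233), while Ckm and Mb were above background on 0 arrays. With no filter on dim probes none of C1qc, Plin4 and Tnnt2 passed. The 10 tubular injury markers had 0 called and a median of 0.09, with 7 changes above 0 and 3 below it. The 3 with an unadjusted p under 0.05 were all higher in aged kidney. They were Vcam1 (0.49, adjusted p by limma 0.0638), Cdkn1a (0.48, 0.0640) and Sox9 (0.73, 0.270). The ages did not overlap for Vcam1 and Cdkn1a and overlapped for Sox9. The part of these cell types in the members' small differences was not tested.

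Beyond the members, 103 other genes of the pathway were read as whole lists. These were 30 further genes grouped as mitochondrial, 34 grouped as peroxisomal, 12 further peroxins and 27 genes of the PPAR axis. A gene so grouped may act elsewhere in the cell. Of the 101 tested, 3 fell and 1 rose in aged kidney (limma, adjusted over all tested genes), or 4 of 101 against 3.38% of all genes, and their median change was -0.05. Changes were below 0 for 59 of the 101 (58.4%), against 52.8% of all genes. By list that was 16 of 30 mitochondrial, 24 of 33 peroxisomal, 5 of 12 peroxin and 14 of 26 PPAR axis genes tested. Ppard, the gene of PPARδ, a relative of PPARα that also activates fat oxidation, fell by 1.00 ± 0.18, a 2.00-fold lower signal (adjusted p = 0.0300). It was at 2.31, 1.89 and 1.58 in young and 0.96, 0.84 and 0.97 in aged kidney. Young replicate 1 was the highest and young replicate 3 the lowest of the young arrays, as for Pdk4, and the aged values lie close together. Without young replicate 1 the change was -0.81 (adjusted p = 0.0621).

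The uncoupling protein genes Ucp3 and Ucp2, neighbours in the genome that encode carriers of the mitochondrial inner membrane, both fell. Ucp3 was at 0.56, 0.36 and 0.52 in young and -0.18, -0.33 and -0.21 in aged kidney. Its change was -0.72 ± 0.11 (adjusted p = 0.0161), with a gap between the ages larger than the spread within either. Ucp2 was at -0.27, -0.44 and -0.15 in young and -0.98, -0.94 and -0.95 in aged kidney, a change of -0.67 ± 0.11 (adjusted p = 0.0230), with aged values nearly equal. Hao2, a peroxisomal oxidase of 2-hydroxy acids, rose: it was at 2.70, 2.60 and 2.81 in young and 3.20, 3.15 and 3.42 in aged kidney, a change of 0.56 ± 0.12 (adjusted p = 0.0497).

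These calls rest on few arrays. Ppard passed without young replicate 3 or aged replicate 1 and lost its call without each of the other 4 arrays (adjusted p up to 0.118). Ucp3 lost it without young replicate 1 or 3 or aged replicate 2 (up to 0.0813), Ucp2 without young replicate 1 or 3 or aged replicate 2 or 3 (up to 0.0992), and Hao2 without any of the 6 (0.0514 to 0.177). All 4 kept their direction in the 18 alternatives run, and none passed when dim probes were kept in the test. With median centring Ucp2 (adjusted p = 0.0795) and Hao2 (0.107) did not pass, nor did Hao2 with normexp (0.0750), the authors' deposited values (0.0511) or the percentile taken over probes (0.0522).

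**Figure D4:**
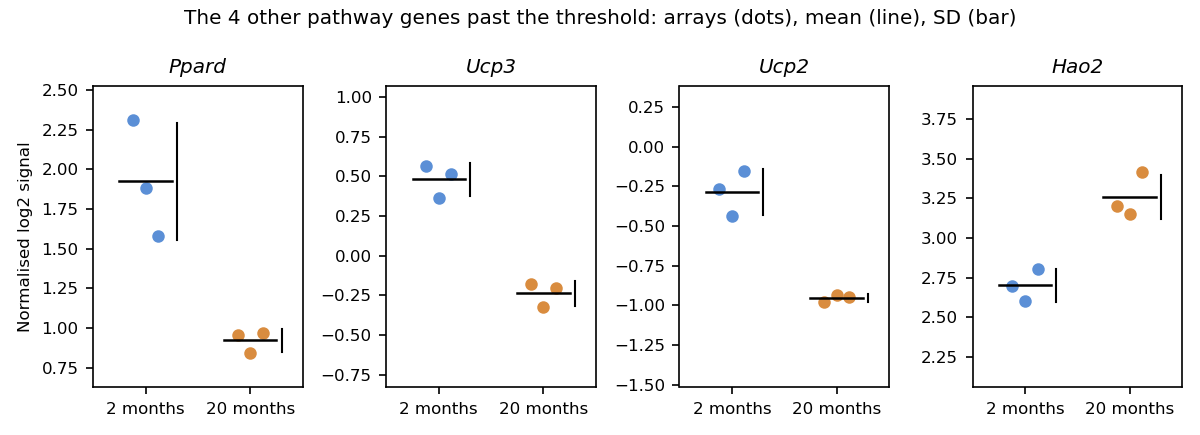
Normalised log2 signal of Ppard, Ucp3, Ucp2 and Hao2 on each of the 6 arrays (dots; 2 months on the left, 20 months on the right), with the mean (line) and SD (bar) of the 3 arrays of an age. Every aged dot lies below every young dot in Ppard, Ucp3 and Ucp2 and above in Hao2, and the young dots of Ppard spread from 1.58 to 2.31.

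Apart from Ppard, Ucp3, Ucp2 and Hao2, no gene of the other lists passed the threshold. In the further mitochondrial genes 2 of 30 fell and the median was -0.03. After Ucp3 and Ucp2, the smallest p belonged to Acsl6, a fatty acid activating enzyme, at -0.44 ± 0.18 (adjusted p = 0.269). Acsl6 was dim, above background on 3 young and 2 aged arrays, and its ages overlapped. The pyruvate dehydrogenase kinases Pdk1 and Pdk2 changed by -0.21 and 0.16, neither past the threshold. The ages overlapped for Pdk1, while every aged value of Pdk2 lay above every young value, by a narrow gap (adjusted p = 0.513). A difference between these kinases and Pdk4 was not tested. In the further peroxisomal genes 1 of 33 tested rose and the median was -0.05. Acot5, a thioesterase next to Acot3 in the genome, was at 1.64, 1.68 and 1.70 in young and 1.38, 0.64 and 0.97 in aged kidney, a change of -0.67 ± 0.18 (adjusted p = 0.101). Baat, which conjugates bile acids, changed by -0.30 (adjusted p = 0.295). Catalase, Cat, which breaks down the hydrogen peroxide made by peroxisomal oxidases, changed by -0.03 (adjusted p = 0.951).

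Of the 12 further peroxins 0 were called (0 with an unadjusted p under 0.05) and the median was 0.04, with Pex3 at -0.19 and Pex26 at 0.18. In the PPAR axis 1 of 26 tested genes fell and the median was -0.05. Fabp1, the liver-type fatty acid binding protein and a PPARα target, was at -2.31, -2.00 and -2.22 in young and -1.73, -1.74 and -1.19 in aged kidney, without overlap. Its change was 0.62 ± 0.17 (adjusted p = 0.118), opposite in sign to that of Pdk4. Acsl3, another activating enzyme, changed by -0.34 ± 0.11 (adjusted p = 0.156). The coactivator Ppargc1a changed by -0.11, the PPAR target Angptl4 by -0.11 and Pparg, the adipocyte receptor of the family, by 0.27, all with overlapping ages.

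**Figure D5:**
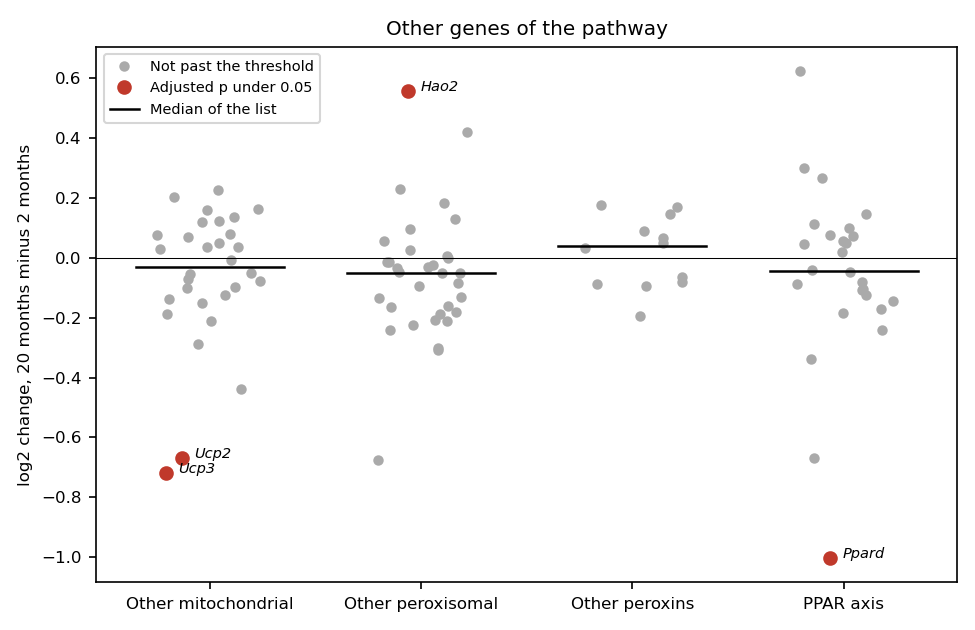
Log2 change from 2 to 20 months (vertical axis) of the 101 tested genes of the other pathway lists, with each dot a gene, the 4 genes with an adjusted p under 0.05 in red and named, and a black line at the median of each list. The medians lie between -0.05 and 0.04, and the named genes Ppard, Ucp3, Ucp2 and Hao2 stand at -1.003, -0.72, -0.67 and 0.56.

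The 4 members with a promoter match to the PPAR motif, Acot12, Acot4, Cd36 and Etfa, changed by -0.17, -0.19, -0.22 and -0.07. None of them passed the threshold, and all 4 changes are below 0, as are those of most members. In the other pathway lists 6 of 80 genes with a window held a match (7.50%), Ucp3 among them. Pdk4, Ucp2 and Ppard held none with up to 2 mismatches, their best places having 4, 4 and 5 mismatches. That says only that these letters are not in the 250 bases searched.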

How the data were processed

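Total RNA was labelled with Cy3 by random priming, per the labels' protocols, so either strand can carry label, and scanned intensities were quantified with Agilent Feature Extraction 11.5.1.1, per the file headers. Its processed signal, also an intensity, had background subtracted by that software, as the headers record. The authors' deposited value table is on the log2 scale with the 75th percentile of each array subtracted, and served as an alternative. Here, control and outlier spots were left out, spots of a probe averaged as log2, and the 75th percentile of each array subtracted. Probes were named through RefSeq accessions (26762 of 55681 had a symbol). A gene was tested if its brightest probe had signal well above background on every array of either age. The 75th percentile of processed signal was 2702 to 4498 and 0 probes were saturated, and the number of arrays limits the precision. Ages were compared with limma 3.58.1 (R 4.3.3; lmFit and eBayes, 2-sided, standard errors and intervals moderated), with Benjamini-Hochberg adjustment. On data simulated with the spreads of all 14548 tested genes, 9 of 67 genes with a true log2 change of 0.5 were found (13.4%). Of those with a change of 1, 51 of 67 were found (76.1%). In the simulation 67, 67 and 66 genes changed by 0.5, 1 and 2, where 491 genes were called in the data. The share found depends on how many genes change, and it was not computed for the members alone.

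The members, lists and tests were chosen with earlier results of these data known. Full values are given for members with an unadjusted p under 0.05 and non-overlapping ages and for the largest change each way per compartment. For the other lists, genes past the threshold and up to 3 with the smallest p are named. Cd36 and the other list genes named (such as Cat and Ppargc1a) are given for their known roles and were chosen with values seen. Some genes of the lists are not reported here by name. Alternatives were quantile normalisation, median centring, normexp, the authors' values, other filters on dim probes, outlier spots kept, the mean of probes, a trended robust variance, array weights, the replicate number as a block, a 2-fold threshold with unadjusted p, each array left out and, added after seeing the data, the 75th percentile taken over probes.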

Additional observations from a re-analysis of the deposited data

How the results depend on the processing

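The count of members past the threshold was 0 in 13 of 19 alternatives and 1, Pdk4 with a lower signal, with median centring, normexp, a filter requiring signal on all 6 arrays, a trended robust variance, array weights and in 1 leave-one-out fit (range 0 to 1). A trended robust variance also passed 1 single probe of a member. The count over all genes, 491, was 800 with median centring (433 higher, 367 lower), 304 with normexp (214 and 90), 16 with no filter on dim probes (15 and 1) and 141 to 922 with an array left out. With the replicate number as a block it was 266 (164 and 102). After the 75th percentile was subtracted, deviations of same-numbered samples from their age means were little correlated (0.06, -0.09 and 0.10). Before that step, array brightness went with the replicate number. The 75th percentile was 4366, 4061 and 2892 on young replicates 1, 2 and 3 and 4498, 4205 and 2702 on the aged. Whether the numbers pair samples is therefore not known, and the block is given as an alternative. The 4 other pathway genes became 2 with median centring, 0 with no filter, 1 with the replicate block (Ucp3, while the adjusted p was 0.0557 for Ppard, 0.0610 for Ucp2 and 0.0728 for Hao2), 1 with a 2-fold threshold and 0 to 6 with an array left out. Causes were not tested.

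The peroxisomal median was -0.15 with the mean of probes and ranged from -0.16 to -0.029 with an array left out, the mitochondrial from -0.17 to -0.084 and the peroxin from -0.13 to -0.037. Leaving out arrays turned Ppara (-0.018 to 0.12, and -0.012 without young replicate 1) and Pex5 (-0.030 to 0.28). Per-array member medians moved with quantile normalisation (aged 1 and 3, -0.015 and -0.032), with median centring (young 1 and 3, -0.12 and 0.17, and aged 1, 2 and 3, -0.22, -0.030 and 0.16) and with normexp (aged 2 and 3, -0.014 and -0.053). A slide block was not run, since all arrays share 1 slide, and normexp used the median spot signal. Dim genes such as Crat and Abcd2 have little signal over background.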
